A study of Mus musculus with 4 samples.

Results

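A20, the protein encoded by Tnfaip3, ends NF-kB signalling by editing the ubiquitin chains that hold its signalling complexes together. This set holds Tnfaip3 and 9 genes whose products work with it or around the same chains: Tnip1, Tnip2, Tnip3, Cyld, Malt1, Bcl10, Traf1, Birc2 and Birc3. They were taken by gene symbol, 1 probe set a gene, from 19938 genes with a value on Affymetrix Mouse Gene 1.0 ST arrays; all 10 were found.

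Microglia are the macrophages that live in the brain. Their RNA, from mice, was read on 4 arrays, 1 for each group. The groups were cells labelled Bid-/- (KO) given lipopolysaccharide (LPS) for 3 h, wild-type cells of strain C57Bl given LPS for 3 h, cells labelled Bid-/- with no agent, and wild-type cells of strain C57Bl with no agent. Bid is a pro-apoptotic protein of the Bcl-2 family. LPS is a bacterial cell wall component sensed by TLR4. The sources used here give neither the strain of the cells labelled Bid-/-, nor the kind of allele, nor how many animals or preparations stand behind an array. Wild type is written WT, and arrays without an agent are called controls.

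When TLR4 or a TNF receptor is engaged, ubiquitin ligases build chains on adaptor proteins, and the kinases that free NF-kB dock on those chains. The cIAP proteins (Birc2 and Birc3) and the TRAF adaptors help to build chains. A20 and CYLD take them apart, and the TNIP proteins, also called ABINs, bring A20 to its targets. MALT1, a protease that forms filaments with BCL10, cleaves A20 and CYLD among other targets. In macrophages Tnfaip3 is a well-known NF-kB target gene, which makes A20 a feedback inhibitor.

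Values are log2 expression as the authors deposited them, so a difference of 1 is a 2-fold difference. The file does not state the base of the logarithm, which was taken from the range of the values. A level was taken as above a floor when it reached 4.26, the median over probe sets; all 10 genes were above it on all 4 arrays. Pearson's r between pairs of arrays ran from 0.984 to 0.996. There was 1 array in each group, so differences between single arrays carry no p-value and no check by replicates. An additive limma model, fitted to 11326 genes with genotype label and LPS as terms, estimated the LPS change averaged over both labels. Its error joins 1 residual degree of freedom of the gene, the difference of response between the labels, with a variance shared over genes. The shared variance weighed as 3.07 degrees of freedom, called prior. The p-values were adjusted over all genes (Benjamini-Hochberg). The verbs rose and fell are kept for genes that passed it at 0.05.

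Bid itself went against the labels with LPS. With LPS it read 5.97 (labelled Bid-/-), against 5.02 (WT). In controls it read 5.53 (labelled Bid-/-), against 5.69 (WT). The sources used here do not place its probes against the deleted part. The probe set may therefore be no check at all, and every direction between genotypes rests on the labels. Of 11 measured microglia markers, all were above the floor on both control arrays and 10 on both LPS arrays, the exception being P2ry12. In controls P2ry12 was close to the floor as well, at 4.38 (labelled Bid-/-) and 4.33 (WT). Whether these markers tell microglia from other macrophages was not tested. None (0) of 8 neutrophil markers reached the floor on any array, and 2 of 8 lymphocyte markers did on 1 array or more. So did 8 of 12 markers of fibroblasts and mural cells, 6 of 8 of astrocytes, 5 of 6 of oligodendrocytes, 4 of 6 of endothelium and 1 of 7 of neurons. Of all 19938 genes, 11326 reached the floor on 1 array or more, so such counts do not by themselves show that a cell type was present.

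Promoter sequence was available for 9 of the 10 genes, as RefSeq windows of assembly GRCm38.p6 that run from 250 bases before to 50 bases after an annotated start; Malt1 had no window to use here. Both strands were searched for the NF-kB consensus site, a motif of 10 letters, and for GGAATTTCC, a 9-letter form that this consensus does not cover. The consensus was present in 5 of the 9 genes (Tnfaip3, Tnip1, Tnip3, Bcl10 and Cyld), where 9.55% of all 27025 genes in the promoter table held it. GGAATTTCC was present in Tnfaip3 alone of the 9, and in 0.381% of all genes. The 4 windows below are shown because 2 belong to genes that passed the test for LPS (Tnfaip3 and Tnip1) and 2 to genes that did not (Tnip3 and Cyld), although each holds a match. Capitals mark the matched letters, and each sequence is written 5′ to 3′ along the strand of its gene.
Tnfaip3, chr10:19015361-19015660, minus strand: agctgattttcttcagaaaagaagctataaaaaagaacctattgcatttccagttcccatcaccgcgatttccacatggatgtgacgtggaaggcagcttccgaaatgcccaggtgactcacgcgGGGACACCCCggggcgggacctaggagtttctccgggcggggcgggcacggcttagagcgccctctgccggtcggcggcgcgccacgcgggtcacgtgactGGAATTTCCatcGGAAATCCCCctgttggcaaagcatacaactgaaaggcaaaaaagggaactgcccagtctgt
Tnip1, chr11:54962891-54963190, minus strand: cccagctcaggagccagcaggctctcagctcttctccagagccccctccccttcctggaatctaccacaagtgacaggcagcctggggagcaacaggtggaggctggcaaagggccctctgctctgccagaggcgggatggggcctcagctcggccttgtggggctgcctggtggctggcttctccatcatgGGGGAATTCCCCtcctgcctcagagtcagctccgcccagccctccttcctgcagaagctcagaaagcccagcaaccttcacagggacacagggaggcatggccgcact
Tnip3, chr6:65590148-65590447, plus strand: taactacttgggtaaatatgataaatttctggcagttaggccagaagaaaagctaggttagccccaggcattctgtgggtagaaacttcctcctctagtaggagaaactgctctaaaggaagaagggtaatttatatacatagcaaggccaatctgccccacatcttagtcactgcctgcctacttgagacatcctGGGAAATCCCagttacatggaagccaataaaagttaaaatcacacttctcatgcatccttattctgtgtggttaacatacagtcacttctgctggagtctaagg
Cyld, chr8:88696778-88697077, plus strand: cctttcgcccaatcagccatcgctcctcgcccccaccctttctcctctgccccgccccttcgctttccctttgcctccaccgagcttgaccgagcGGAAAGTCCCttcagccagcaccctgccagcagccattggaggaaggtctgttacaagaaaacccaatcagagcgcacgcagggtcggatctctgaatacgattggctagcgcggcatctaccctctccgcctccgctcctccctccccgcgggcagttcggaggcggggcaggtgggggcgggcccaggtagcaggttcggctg
In Tnfaip3 the GGAATTTCC match began at base -24 from the start, a consensus match followed at base -12, and a further one lay at base -125. In Tnip1 the capitals hold 3 overlapping matches, of which the first began at base -58. The Tnip3 match began at base -54 and the Cyld match at base -155; that of Bcl10, not printed, began at base -241. The windows of Tnip2, Traf1, Birc2 and Birc3 held neither form. A match describes the letters of the window, and its use in these cells was not measured.

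LPS raised 4 of the 10 genes, and these 4 come from 3 different roles: Malt1, Tnfaip3, Tnip1 and Traf1. Each was at least 2-fold higher with LPS under both labels, a fold reached by 1.65% of the 11326 genes. The 10 genes were chosen with earlier results of these data known, so their counts beside the shares of all genes are a description only. The fit called 4 of 10 higher and 0 lower, where 1.68% of all genes were called higher and 1.56% lower. By unadjusted p under 0.05 the count was 8 of 10, against 28.8% of all genes. The 6 genes without a call were Bcl10, Tnip2, Tnip3, Birc2, Birc3 and Cyld. The median LPS change over the 10 genes was 0.81 on the arrays labelled Bid-/- and 0.71 in WT, where the median of all genes tested was -0.10 and -0.05. Both LPS arrays stood above both control arrays for 8 of 10 genes, as for 20.2% of all genes; Birc2 overlapped, and Cyld was below. By sign alone, 9 of 10 genes were higher with LPS under both labels (26.5% of all genes), 1 was lower under both (42.1%) and 0 differed in sign (28.7%).

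**Figure D1:**
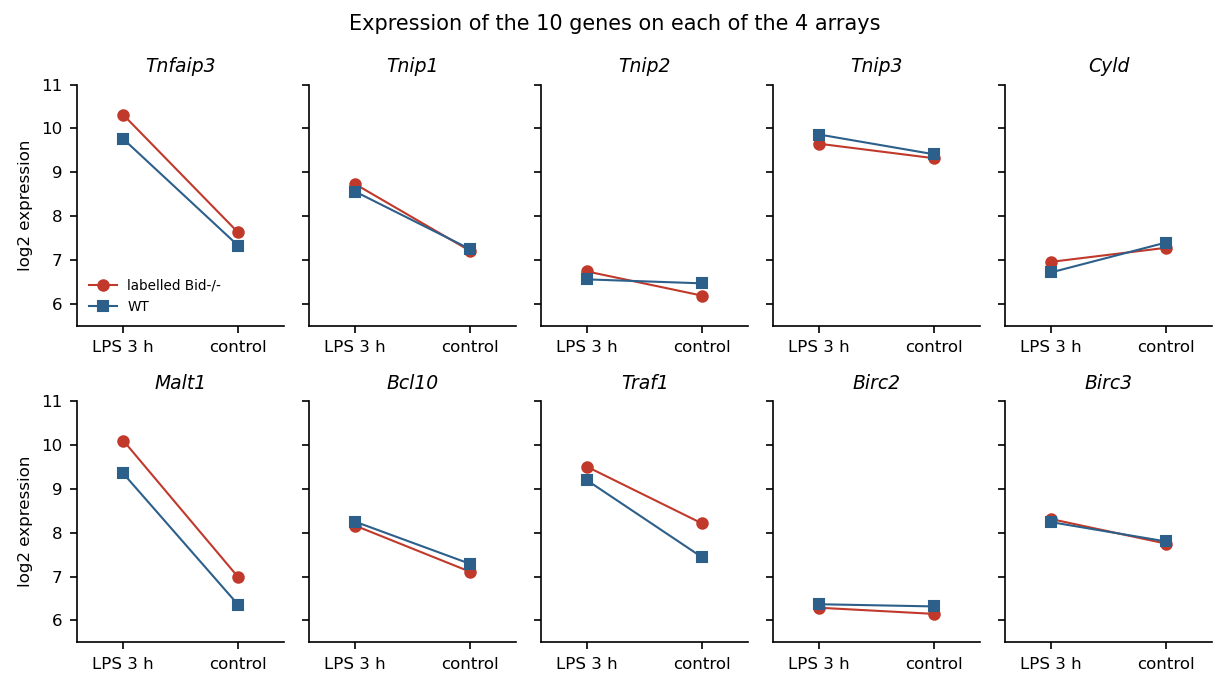
Log2 expression (y axis) of each gene on the LPS arrays (left) and control arrays (right); red circles are the arrays labelled Bid-/-, blue squares WT, 1 array a point, and lines join the arrays of a label. Malt1 and Tnfaip3 have the steepest lines, Cyld is the one gene whose LPS points lie below its control points under both labels, and Birc2 is nearly flat.

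Tnfaip3, the A20 gene, read 10.31 (labelled Bid-/-) and 9.76 (WT) with LPS, against 7.63 (labelled Bid-/-) and 7.33 (WT) in controls. The lowest LPS value lay more than 2 log2 units above the highest control value. The LPS change was 2.68 on the arrays labelled Bid-/- (6.41-fold) and 2.43 in WT (5.39-fold). The fitted change was 2.56 ± 0.15 (SE, limma adjusted p = 0.0225). In rank, Tnfaip3 was 25th from the highest of 10995 genes on the arrays labelled Bid-/- and 45th of 11129 in WT.

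Of the 3 genes for A20-binding proteins, 1 rose. Tnip1, whose product ABIN-1 binds A20 and ubiquitin chains, read 8.73 (labelled Bid-/-) and 8.56 (WT) with LPS, against 7.21 (labelled Bid-/-) and 7.25 (WT) in controls. It rose by 1.52 on the arrays labelled Bid-/- and by 1.31 in WT, with a fitted change of 1.42 ± 0.15 (SE, limma adjusted p = 0.0382). The control values of the labels were nearly equal, and the LPS values of both lay well above them.

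Tnip2 encodes ABIN-2, which also holds the kinase TPL2 in macrophages. It read 6.74 (labelled Bid-/-) and 6.56 (WT) with LPS, against 6.19 (labelled Bid-/-) and 6.47 (WT) in controls. The 2 WT values were 0.09 apart and the values labelled Bid-/- 0.55 apart, and the fit did not call it (limma adjusted p = 0.302). Tnip3 encodes ABIN-3, reported as an LPS-inducible member in human myeloid cells. It read 9.65 (labelled Bid-/-) and 9.86 (WT) with LPS, against 9.32 (labelled Bid-/-) and 9.41 (WT) in controls. Its LPS differences of 0.33 and 0.45 did not pass (limma adjusted p = 0.165).

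Cyld, the deubiquitinase that strips lysine-linked and linear chains, was the one gene of the set with lower values under LPS. It read 6.96 (labelled Bid-/-) and 6.72 (WT) with LPS, against 7.28 (labelled Bid-/-) and 7.40 (WT) in controls. The differences were -0.32 on the arrays labelled Bid-/- and -0.68 in WT, and the fit did not call them (limma adjusted p = 0.147). Both LPS arrays below both control arrays is a pattern that 35.4% of all genes showed.

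Malt1, the paracaspase, had the largest LPS change of the 10 genes under either label. It read 10.10 on the LPS array labelled Bid-/- and 9.35 on the WT LPS array, against 6.99 on the control array labelled Bid-/- and 6.36 on the WT control array. The change was 3.11 on the arrays labelled Bid-/- (8.63-fold) and 2.99 in WT (7.94-fold), ranking 10th and 21st from the highest of the genes tested. The fitted change was 3.05 ± 0.15 (SE, limma adjusted p = 0.0208). The WT LPS value was far above the control value labelled Bid-/-. Both LPS arrays thus stood above both control arrays, a pattern that 20.2% of all genes showed.

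Bcl10, the adaptor that carries MALT1 in its filaments, read 8.16 (labelled Bid-/-) and 8.25 (WT) with LPS, against 7.11 (labelled Bid-/-) and 7.29 (WT) in controls. Its differences of 1.05 and 0.96 were well below those of Malt1 on the log2 scale, and the adjusted p lay just past the threshold (limma adjusted p = 0.0530). Because Bcl10 crossed 2-fold on the arrays labelled Bid-/- alone, the count of genes at least 2-fold higher was 5 of 10 there (2.7% of all genes) and 4 of 10 in WT (2.39%). No gene of the 10 was at least 2-fold lower under either label, where 1.65% and 2.08% of all genes were.

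**Figure D2:**
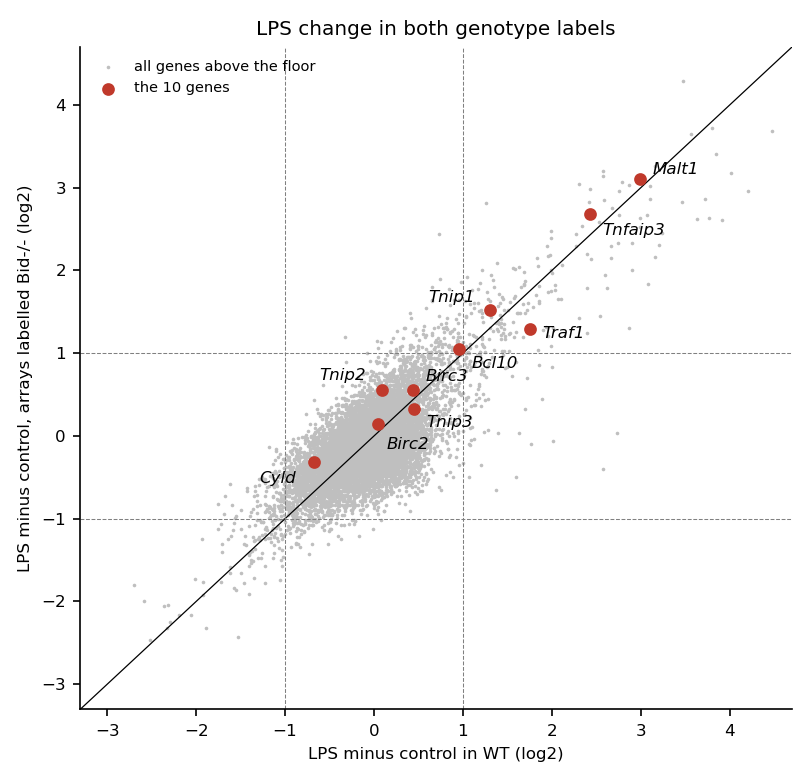
LPS minus control on the arrays labelled Bid-/- (y axis, log2) against the same difference in WT (x axis, log2); grey points are 11326 genes, red points the 10 genes, the solid line is equality and dashed lines mark 2-fold. Malt1 and Tnfaip3 lie near the line at the upper right, Traf1 lies below it, and Tnip2 and Cyld lie above it.

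Traf1, an adaptor that joins TRAF2 and the cIAPs and is itself induced by NF-kB, read 9.50 on the LPS array labelled Bid-/- and 9.19 on the WT LPS array, against 8.21 on the control array labelled Bid-/- and 7.44 on the WT control array. Both LPS arrays stood above both control arrays (20.2% of all genes), although the control array labelled Bid-/- stood well above the WT control array. Traf1 rose by 1.29 on the arrays labelled Bid-/- and by 1.75 in WT, with a fitted change of 1.52 ± 0.18 (SE, limma adjusted p = 0.0450).

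The cIAP genes lie next to each other on chromosome 9. Birc2, the cIAP1 gene, read 6.29 (labelled Bid-/-) and 6.37 (WT) with LPS, against 6.15 (labelled Bid-/-) and 6.32 (WT) in controls. The 4 values overlapped, and the LPS differences were 0.14 and 0.05 (limma adjusted p = 0.662). A dimmer probe set of Birc2, named from a single transcript record, gave 0.22 and 0.24. Birc3, the cIAP2 gene, read 8.31 (labelled Bid-/-) and 8.24 (WT) with LPS, against 7.75 (labelled Bid-/-) and 7.80 (WT) in controls. Its differences of 0.56 and 0.44 did not pass (limma adjusted p = 0.127). The genes are paralogs, and how far a probe set of one reads the transcript of the other was not tested.

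The calls rest on how the fit was set up. Without the floor on low values, 19938 genes entered and 0 genes were called in all, with adjusted p of 0.0951 for Malt1 and Tnfaip3, 0.107 for Tnip1 and 0.127 for Traf1; by unadjusted p, 3751 genes lay under 0.05 there. These 4 genes passed in the other settings tried. With the intensity trend removed, Bcl10 (limma adjusted p = 5.43e-06) and Birc3 (limma adjusted p = 0.0368) passed as well, and with the gene span trend removed too, so did Tnip2 (limma adjusted p = 0.0254). In both of these settings the prior degrees of freedom were infinite, so the p-values rest on the shared variance alone and not on a gene's own error.

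In patterns over the 4 arrays, the gene nearest to Tnfaip3 among 11325 others was Sprr2d, a small proline-rich protein gene. Nearness was the Euclidean distance between the 4 values, each gene centred on its own mean, and it was 0.25 for Sprr2d. Dcbld2, a transmembrane receptor gene, followed at 0.29, the microRNA gene Mir221 at 0.30, Cd83, a marker of activated antigen-presenting cells, at 0.35 and the cytokine gene Il19 at 0.36. Nearest to Malt1 were Olr1, a scavenger receptor gene (0.30), Dcbld2 (0.34), the atypical chemokine receptor gene Ccrl2 (0.34), Rab11fip1, a recycling endosome gene (0.36), and the inflammasome sensor gene Nlrp3 (0.37). Of these genes, Sprr2d, Il19 and Olr1 were below the floor on both control arrays and entered through their LPS arrays alone. Their control values were 3.94, 4.03 and 3.57 (labelled Bid-/-) and 3.83, 4.04 and 3.23 (WT). All distances come from the same 4 arrays and are a description only.

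Of the other genes of the pathway, 4 rose with LPS. Lists of 69 genes in 9 groups were drawn up around the 10, of which 62 had a value and 58 were above the floor. The fit called 4 of the 58 higher and 0 lower, where 1.68% and 1.56% of all genes were. The median LPS change of the 58 was 0.08 on the arrays labelled Bid-/- and 0.03 in WT. The lists were chosen with earlier results of these data known.

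In the list drawn up for A20 complexes and ubiquitin editing, 1 of 9 genes rose. It was Nfkbia, which encodes the NF-kB inhibitor IkBa and not a ubiquitin-editing enzyme. Nfkbia read 11.03 (labelled Bid-/-) and 11.25 (WT) under LPS, against 9.74 (labelled Bid-/-) and 9.79 (WT) in controls (limma adjusted p = 0.0321). No other gene of this list was called. The partners Itch, Rnf11 and Tax1bp1, with which A20 forms a ubiquitin-editing complex, named here after their values were seen, had LPS changes of 0.00, -0.04 and 0.19 on the arrays labelled Bid-/- and of -0.26, 0.12 and -0.12 in WT, none of them called. Among 8 substrates of MALT1 outside the set, 1 rose. Zc3h12a, which encodes the RNase Regnase-1, read 8.92 (labelled Bid-/-) and 8.66 (WT) with LPS, against 6.90 (labelled Bid-/-) and 7.07 (WT) in controls (limma adjusted p = 0.0340).

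In the list drawn up for the TNF receptor complex and cIAP targets, 2 of 7 genes rose. Cflar, which encodes the caspase-8 regulator FLIP, was 1.11 higher on the arrays labelled Bid-/- and 1.08 higher in WT (limma adjusted p = 0.0454). Tnfrsf1b, which encodes the TNF receptor that binds TRAF1 with TRAF2, was 0.83 and 0.85 higher (limma adjusted p = 0.0499). None was called among 8 partners of BCL10 and MALT1, 10 other deubiquitinases and their adaptors, 3 linear ubiquitin ligase genes, 5 other TRAF genes, 5 other IAP genes or 6 genes of the TAK1 and IKK complexes. Median LPS changes in these 6 lists ran from -0.23 to 0.20 on the arrays labelled Bid-/- and from -0.79 to 0.11 in WT. The lowest of each belonged to the IAP family list, where the measured Naip genes were lower with LPS under both labels. Its other genes above the floor were Xiap and Birc6. Their LPS changes were 0.54 and 0.50 on the arrays labelled Bid-/- and 0.10 and -0.07 in WT.

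**Figure D3:**
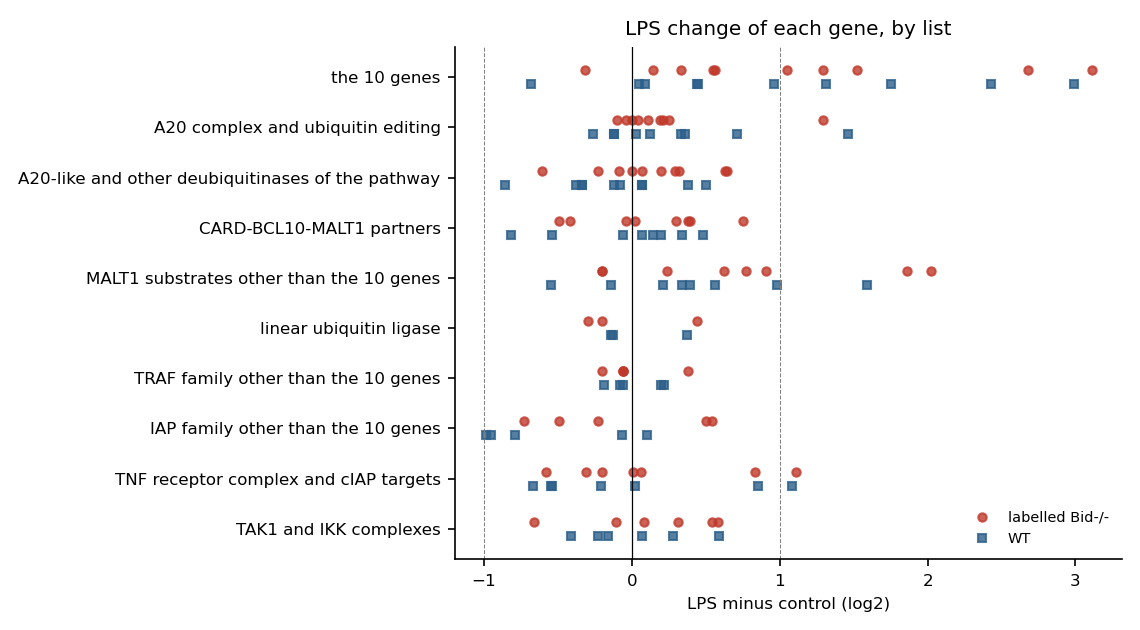
LPS minus control (x axis, log2) of every gene above the floor, by list (rows); red circles are the arrays labelled Bid-/-, blue squares WT, and dashed lines mark 2-fold. The 10 genes reach beyond 2-fold more often than any other list, with 5 circles and 4 squares past it. They and the lists were chosen with earlier results of these data known.

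Between the genotype labels, Malt1 and Traf1 had the largest differences of the 10 without LPS. No gene of the 10 differed by 2-fold between labels in either condition, a fold reached by 0.358% of all genes (higher) and 0.0733% (lower) without LPS, and by 0.326% and 0.489% with it. At 1.5-fold, 2 of 10 were higher on the control array labelled Bid-/- than on the WT control array (1.45% of all genes) and 1 of 10 on the LPS array labelled Bid-/- (4.69%); 0 of 10 were lower by 1.5-fold (0.44% without LPS and 6.07% with it). The 2 were Traf1 (8.21 on the control array labelled Bid-/-, against 7.44 in WT, a difference of 0.77) and Malt1 (6.99, against 6.36, a difference of 0.63). With LPS the 1 was Malt1 (10.10 on the array labelled Bid-/-, against 9.35 in WT, a difference of 0.75). For Tnfaip3 the label difference was 0.55 with LPS and 0.30 without it. The difference with LPS depended on the processing. It was 0.72 after quantile normalization, 0.70 with the intensity trend removed and 0.71 with both trends removed, each past 1.5-fold.

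The remaining 7 genes lay within 0.28 of 0 in both conditions. Tnip3, Bcl10 and Birc2 were lower on both arrays labelled Bid-/-, by up to 0.21 (Tnip3 with LPS). Over all 10, 3 were higher on the arrays labelled Bid-/- in both conditions (31.7% of all genes), 3 lower in both (27.2%) and 4 of opposite sign (37.2%). The median difference between labels was 0.18 with LPS and -0.07 without it, against 0.01 for all genes in both conditions. The additive fit called 0 of 11326 genes for the label, and 0.0% is thus the background; an unadjusted p under 0.05 was read for 709 genes (6.26%), and for 2 of the 10, Malt1 and Traf1. The lowest adjusted p among the 10 was 0.623 (limma).

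**Figure D4:**
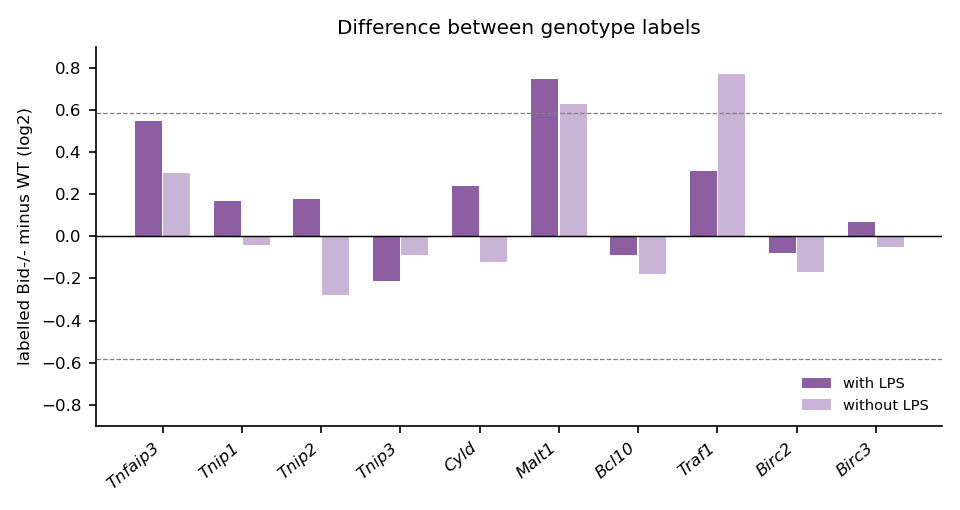
Arrays labelled Bid-/- minus WT (y axis, log2) for each gene, with LPS (dark bars, left) and without (light bars, right); dashed lines mark 1.5-fold, and each bar is the difference of 2 arrays with no replicate. Malt1 passes the upper line in both conditions, Traf1 without LPS, and no bar passes the lower line.

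Markers of fibroblasts and mural cells were also higher on the control array labelled Bid-/-. Summed on the linear scale over 12 markers, they came to 772 on the control array labelled Bid-/-, against 384 on the WT control array, and to 655 on the LPS array labelled Bid-/-, against 711 on the WT LPS array. Of the 12, 8 were above the floor on the control array labelled Bid-/- and 7 on the WT control array. Among the brightest of them, Dcn was 2.15, Acta2 0.49 and Col1a1 0.91 higher on the control array labelled Bid-/-. With LPS, Dcn was 0.13 and Col1a1 0.22 higher and Acta2 was 0.90 lower on the array labelled Bid-/-. The part of these cells in the differences of Malt1 and Traf1 was not tested. In bulk RNA, fewer cells of a type and less RNA per cell cannot be told apart. Strain, sex and preparation cannot be told apart from the genotype label.

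The LPS changes under the 2 labels were then set against each other for each gene. The LPS change under the Bid-/- label, less the WT one, was above 0 for 8 of 10 genes, as for 49.4% of all genes, and its median was 0.12, against 0.00 for all genes. It ran from -0.46 (Traf1) to 0.46 (Tnip2). For Traf1 the negative value goes with the higher control value labelled Bid-/-, which it shares with the comparison of the control arrays. For Cyld the value was 0.36, since its LPS difference was nearer 0 on the arrays labelled Bid-/-. No gene of the 10 reached 2-fold, where 0.159% of all genes did upward and 0.627% downward. With 4 arrays no error is left to test this difference.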

How the data were processed

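The authors deposited 1 table of log2 expression for 28944 probe sets on 4 arrays; per the submitters' processing notes, the tools were RMA, Partek 6.2 and Affymetrix Expression Console, and their order was not stated. RMA brings arrays to a common distribution, which removes any shift shared by all genes. Genes were named from the platform annotation: 21789 probe sets had 1 symbol, 1621 several and 5534 none. The probe set with the highest mean was used for each gene, and genes entered a comparison when the higher array reached 4.26. limma 3.58.1 (R 4.3.3) fitted the additive model (eBayes with intensity trend, Benjamini-Hochberg). Values have 2 decimals and 169 genes had a residual of 0. Labels do not say whether arrays were separate preparations, so p-values may measure technical spread.

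The members and lists were chosen with earlier results of these data known. Named genes were the 10, Bid, up to 4 genes of each list that passed the fit or 2-fold under both labels, the 5 nearest to Tnfaip3 and to Malt1, and the 3 brightest markers. Alternatives were no floor, quantile normalization, removal of trends (lowess, fraction 0.3), the mean of all probe sets, noise inside the rounding, eBayes without trend and a 1.5-fold call. The number of arrays limits the precision. RefSeq gene spans and promoters are of GRCm38.p6. Partners with no single-symbol probe set (among them Traf3, Naip1, Naip7, Ripk1, Ripk2 and Chuk) and scanner values were not analysed here.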

Additional observations from a re-analysis of the deposited data

Results flagged for a closer look

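Several genes differed between genotype labels in opposite directions with and without LPS; none of these differences was tested, and each compares single arrays. The Bid-/- minus WT difference with LPS, less that without it, was 0.46 for Tnip2 (0.18 and -0.28), 0.36 for Cyld (0.24 and -0.12), 0.21 for Tnip1 (0.17 and -0.04) and 0.12 for Birc3 (0.07 and -0.05). Among the listed pathway genes it was 0.43 for Zc3h12a (0.26 and -0.17). For Bid the value was 1.11 (0.95 and -0.16), and its LPS change was also of opposite sign under the labels, 0.44 on the arrays labelled Bid-/- and -0.67 in WT. Opposite signs were read for 37.2% of all genes.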

How the results depend on the processing

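The number of genes the additive fit called for LPS depended on the setting. It was 367 as reported, 0 without the floor, 1928 after quantile normalization, 2186 with noise inside the rounding, 2459 with the intensity trend removed and 2532 with intensity and gene span trends removed, a setting chosen after seeing the data. Of the 10 genes, 0 were called without the floor and 7 with both trends removed, against 4 as reported; Bcl10 passed after quantile normalization, with the noise and with either trend removal (adjusted p from 4.56e-07 to 0.00335), Birc3 with the intensity trend (0.0368) or both trends (0.0118) removed, and Tnip2 with both removed (0.0254). For the genotype label the count of 0 genes became 40 (quantile), 17 (noise), 286 (intensity trend) and 291 (both trends). With the intensity trend or both trends removed 1 of the 10 was called, Malt1, at 0.75 (adjusted p = 0.0310) and 0.71 (adjusted p = 0.0287). The prior degrees of freedom were infinite in these settings, so all p-values from them rest on the variance shared over genes alone. At 1.5-fold, 2 of the 10 passed between control arrays and 1 between LPS arrays, against 0 at 2-fold. Tnfaip3 also passed 1.5-fold between LPS arrays after quantile normalization or removal of trends. The cause was not tested. Over these settings the LPS change of Malt1 ran from 3.11 to 3.24 on the arrays labelled Bid-/- and from 2.92 to 3.08 in WT, that of Tnfaip3 from 2.68 to 2.86 and from 2.35 to 2.47, and the LPS change of none of the 10 changed sign under either label. The difference of LPS response did change sign for Tnip3. It was -0.12 as reported, 0.016 after quantile normalization, 0.045 with the intensity trend removed and -0.0088 with both trends removed. The label difference of Tnip3 with LPS went from -0.21 to -0.045 (quantile) and -0.016 (intensity trend). The median difference of response over the 10 genes went from 0.12 to 0.22 and 0.20, that of all genes from 0.00 to 0.025 and 0.049. Leaving out an array leaves the additive fit with no residual degree of freedom, so no such test was run.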

Other observations

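A few pathway genes outside the named ones showed sizeable values, chosen after they were seen and not called by the fit. Nfkbiz, which encodes the atypical NF-kB regulator IkB-zeta, had LPS changes of 1.86 under the Bid-/- label and 0.98 in WT (limma adjusted p = 0.0659), and it was 0.68 lower on the control array labelled Bid-/- than on the WT control array. The Naip genes, whose products sense bacterial proteins for an inflammasome, had lower values with LPS. The change was -0.73 under the Bid-/- label and -0.95 in WT for Naip5 (limma adjusted p = 0.0608), -0.49 and -0.79 for Naip2, and -0.23 and -0.99 for Naip6. All 3 were higher on the LPS array labelled Bid-/- than on the WT LPS array, by 0.66, 0.84 and 0.92. They were also higher on the control array labelled Bid-/- than on the WT control array, by 0.44, 0.54 and 0.16. A label difference above 0 in both conditions was read for 31.7% of all genes. The Naip genes are paralogs, and how far their probe sets share signal was not tested.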
